A study of Mus musculus with 6 samples.

Results

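The glutathione transferases described here are 10 mouse genes of the alpha (Gsta4, Gsta3), mu (Gstm1, Gstm2, Gstm5), pi (Gstp1), omega (Gsto1), theta (Gstt1) and membrane-bound (Mgst1, Mgst3) classes. Every probe set annotated with exactly 1 of these symbols was taken, which gave 17 of 22626 probe sets on the array. The series measured total cochlear RNA (the cochlea is the coiled organ of hearing) of male mice of the inbred strain DBA/2J, which loses hearing early in life. There were 3 samples of 36-week-old mice and 3 samples of 7-week-old mice, each on 1 single-colour Affymetrix array, and the 2 groups were labelled alike in strain, sex, tissue and housing. The labels do not say whether a sample is 1 animal or a pool. The p-values therefore set each difference only against the spread between these samples, which may not be the spread between animals. Median signals were 844.0 to 859.4 for the 36-week arrays and 766.3 to 800.5 for the 7-week arrays, and precision is limited throughout by having 3 arrays an age.

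Glutathione transferases join the tripeptide glutathione to reactive electrophiles such as lipid aldehydes, quinones and epoxides, and the conjugates are then pumped out of the cell. The cytosolic enzymes work as dimers, while the microsomal enzymes Mgst1 and Mgst3 belong to a separate family of integral membrane proteins (MAPEG) that also reduces lipid hydroperoxides. Many of these genes are induced through the transcription factor NRF2, which binds the antioxidant response element in their regulatory DNA. In the inner ear, glutathione is part of the defence against noise, drugs such as cisplatin, and ageing, and null alleles of the human counterparts of Gstm1 and Gstt1 have been studied in hearing loss.

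Both motifs named below were looked for in the promoter windows of RefSeq assembly GRCm38.p6, from 250 bases before to 50 bases after a gene's start, because they are the textbook link between these genes and oxidative stress. The core of the antioxidant response element, TGACNNNGC, was searched on both strands and stood in windows of 3 of the 9 members with a window (Gsta3, Gstm5 and Mgst1, with Gsta4 the member without one), against 14.0% of 27025 genes. The AP-1 site TGANTCA, which does not overlap any of these matches, stood in windows of 2 members (Gstm5 and Gstp1), against 8.97% of genes. The upstream 250 bases are shown for Gstm5 and Mgst1, whose signals differed between the ages in opposite directions, and a short stretch around the match for Gsta3 and Gstp1. Capitals mark the matches. Those of Mgst1 and Gstm5 to the response element begin 56 and 42 bases before the gene's start, and the one of Mgst1 reads on the opposite strand. A match is only a match of letters.
Mgst1 (chr6:138140277-138140526, plus strand): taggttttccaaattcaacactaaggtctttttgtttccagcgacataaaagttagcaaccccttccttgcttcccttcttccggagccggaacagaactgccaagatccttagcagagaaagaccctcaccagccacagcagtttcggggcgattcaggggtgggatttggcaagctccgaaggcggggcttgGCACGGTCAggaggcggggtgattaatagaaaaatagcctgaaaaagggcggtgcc
Gstm5 (chr3:107895604-107895853, plus strand): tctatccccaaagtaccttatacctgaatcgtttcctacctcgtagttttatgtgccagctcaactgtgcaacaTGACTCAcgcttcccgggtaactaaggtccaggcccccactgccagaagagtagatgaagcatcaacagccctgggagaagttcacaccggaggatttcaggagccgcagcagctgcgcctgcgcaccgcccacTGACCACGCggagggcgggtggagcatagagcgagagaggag
Gsta3 (chr1:21240444-21240492, plus strand): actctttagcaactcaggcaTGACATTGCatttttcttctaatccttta
Gstp1 (chr19:4037960-4038006, minus strand): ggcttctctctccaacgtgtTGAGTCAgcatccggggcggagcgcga

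The members did not move together. At 36 weeks Gsto1, Mgst1 and Gstm1 were higher, Gsta4 and Gstm5 were lower, and Gstm2, Gstp1, Gstt1 and Mgst3 did not pass the test. Both probe sets of Gsta3 were too dim to be tested. Signals were compared on the scale log2(signal + 50) with limma's moderated test across the 13575 probe sets whose mean signal lay above the 40th percentile, two-sided, and a Benjamini-Hochberg adjusted p under 0.05 is the threshold. Of the 17 member probe sets 13 were tested, of which 6 were higher and 2 lower at 36 weeks. Over all tested probe sets 34.4% passed, 16.7% higher and 17.7% lower. The median log2 difference of the 13 was 0.29, against 0.02 over all tested probe sets, and 4 of the 13 are probe sets of Gstm1. The median size of the difference was 0.34, against 0.32. Counted by gene through its brightest tested probe set, 3 of 9 genes were higher and 2 lower, where 35.1% of 8555 genes passed, 17.5% higher and 17.6% lower. The median difference of these 9 genes was -0.08, against 0.02 over all tested genes, so the sign of the members' median depends on whether probe sets or genes are counted. A stricter rule required all 9 pairs of an old and a young array to differ at least 1.5-fold. It left 3 member probe sets higher and 1 lower, against 5.79% and 5.06% of all tested probe sets. Higher were both probe sets of Gsto1 and the brighter set of Mgst1, and lower was Gsta4. The dimmer set of Gsto1 was tested because of its level at 36 weeks, as given below. Differences below are 36 weeks minus 7 weeks on the log2 scale, followed by ± limma's moderated standard error (SE). It rests on 3 arrays at each age and on the variance of the other probe sets in the fit. A fold is one mean signal over the other.

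**Figure D1:**
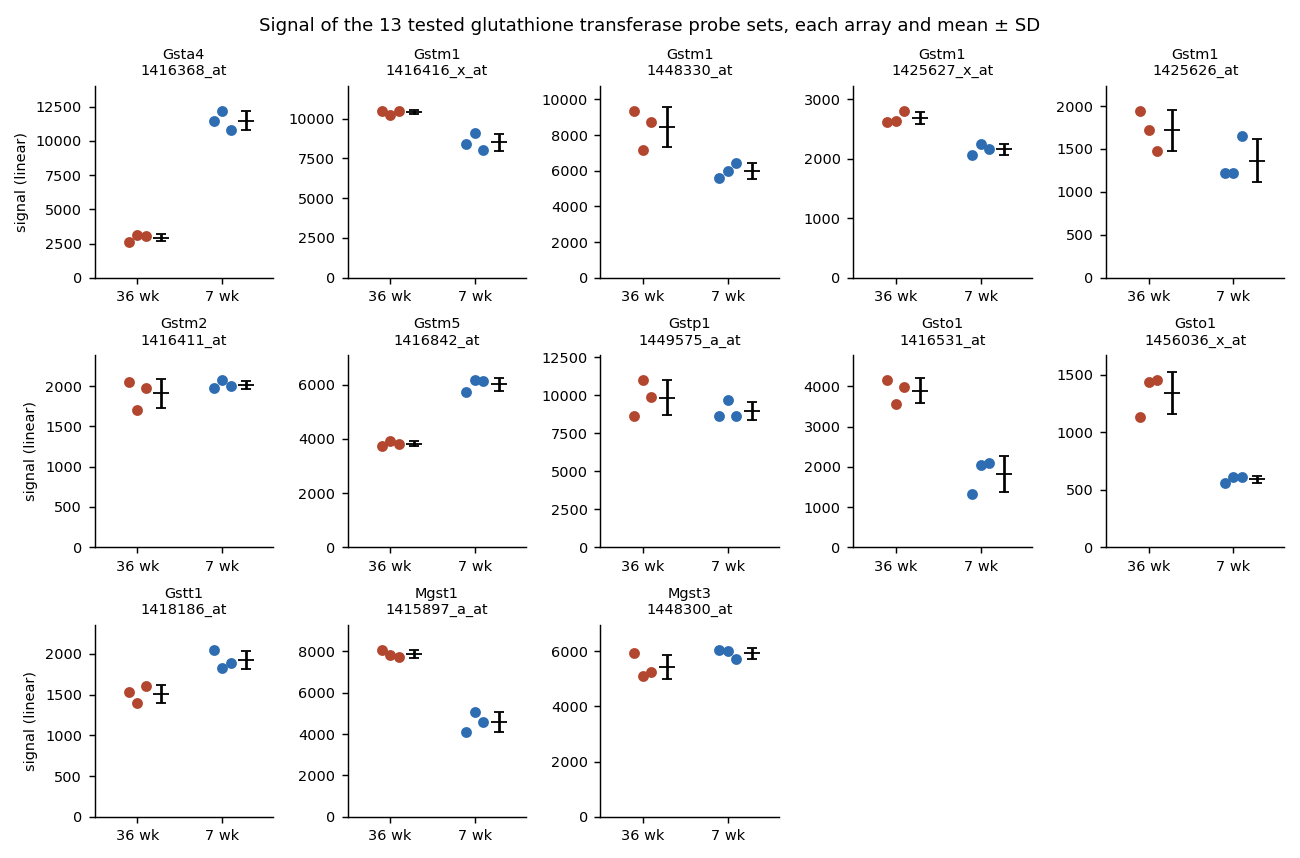
Linear signal of each array (points) for the 13 tested member probe sets at 36 weeks (red, left) and 7 weeks (blue, right), with mean ± SD beside the points and every axis starting at 0. The 2 groups are farthest apart for Gsta4, with 2640 to 3101 at 36 weeks and 10782 to 12205 at 7 weeks, and overlap for Gstm2, Gstp1, Mgst3 and 1 of the 4 probe sets of Gstm1.

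Gsta4, the alpha-class enzyme with high activity toward 4-hydroxynonenal, an aldehyde formed when membrane lipids are peroxidised, showed the largest difference of the members. Its single probe set had signals of 2640.0, 3101.2 and 3036.1 at 36 weeks, against 11450.5, 12205.3 and 10782.0 at 7 weeks. The groups were far apart, and the closest pair of an old and a young array differed 3.48-fold. The mean was 2926 ± 250 at 36 weeks and 11479 ± 712 at 7 weeks (SD, n = 3 each), 3.92-fold higher at 7 weeks. The log2 difference was -1.96 ± 0.09 (SE), with an adjusted p of 1.25e-07 by limma, and only 70 of 13575 tested probe sets had a lower one. In bulk RNA such a difference can come from fewer cells of a type or from less RNA per cell, and these cannot be told apart.

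Gsta3, an alpha-class enzyme that in the mouse detoxifies the aflatoxin epoxide, was dim with both of its probe sets. The brighter had signals of 917.4, 707.7 and 539.3 at 36 weeks and 502.0, 222.7 and 306.2 at 7 weeks. All 9 pairs were higher at 36 weeks, with the lowest old array close to the highest young one. Of the tested probe sets, which do not include this one, 47.8% also had groups that did not overlap, in either direction. The dimmer overlapped between the ages, with 234.6, 352.5 and 383.4 at 36 weeks and 259.1, 248.8 and 34.0 at 7 weeks. With no filter on dim probe sets their log2 differences were 1.00 ± 0.36 and 0.89 ± 0.53, and neither passed (limma adjusted p of 0.0828 and 0.296).

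The mu-class genes lie side by side. Along chromosome 3 RefSeq places them in the order Gstm5, Gstm7, Gstm6, Gstm3, Gstm2, Gstm1 and Gstm4. Of these 7 genes 6 were tested and 2 passed, 1 in each direction, a share near the 35.1% of all genes.

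Gstm1, an abundant mu-class enzyme of liver and glia, had 4 tested probe sets, and all 4 had higher means at 36 weeks. The second brightest, the brightest not ending in _x_at, had signals of 9366.8, 7181.3 and 8761.4 at 36 weeks and 5573.0, 5980.5 and 6460.4 at 7 weeks. Its groups did not overlap, although the second array of 36 weeks came within 1.11-fold of the highest young one. The log2 difference was 0.48 ± 0.11, a 1.41-fold higher mean, with an adjusted p of 0.00609 by limma. The brightest probe set, ending in _x_at, had 10469.8, 10241.9 and 10492.5 at 36 weeks, against 8405.4, 9071.0 and 8019.3 at 7 weeks, with a log2 difference of 0.29 ± 0.07 and an adjusted p of 0.0121. That ending marks probe sets that can bind related transcripts, so the identity of this signal is less certain. A dimmer _x_at set differed by 0.31 ± 0.11 with an adjusted p of 0.0442, and it passed in none of the 6 refits that left out 1 array (adjusted p of 0.0633 to 0.127). The dimmest of the 4 had 1945.1, 1724.6 and 1477.3 at 36 weeks and 1214.8, 1219.3 and 1652.0 at 7 weeks. These groups overlapped in 1 of 9 pairs, and the difference of 0.33 ± 0.17 did not pass (adjusted p of 0.156). Centring every array on its own median, which lowers all differences by 0.10, left the second brightest alone of the 4 past the threshold, since the brightest then had 0.19 with an adjusted p of 0.107.

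Gstm5, a mu-class enzyme known from brain and testis, was lower at 36 weeks. Its single probe set had signals of 3752.8, 3923.7 and 3796.8 at 36 weeks, against 5749.9, 6164.8 and 6126.8 at 7 weeks. Both groups were tight, with coefficients of variation of 2.32% at 36 weeks and 3.81% at 7 weeks, and they lay well apart. The mean was 1.57-fold higher at 7 weeks, and the log2 difference of -0.65 ± 0.08 had an adjusted p of 0.000185 by limma.

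Gstm2, a mu-class enzyme of muscle and other tissues, had a difference between those of Gstm1 and Gstm5. Its signals were 2048.6, 1707.5 and 1980.3 at 36 weeks and 1974.2, 2074.1 and 2000.8 at 7 weeks, and the groups overlapped. The log2 difference of -0.08 had a 95% confidence interval of -0.35 to 0.19 and an adjusted p of 0.654.

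Because the arrays were scaled to a common level before deposit, the mu-class genes were also compared within each array, where a scaling largely cancels (the offset of 50 keeps it from cancelling exactly). The pairs were chosen after the signals were seen, from genes already known to differ. Relative to the mean of the young arrays, the 36-week arrays had log2 ratios of Gstm1 (its second brightest probe set) over Gstm5 of 1.31, 0.87 and 1.20, and the 7-week arrays had -0.04, -0.04 and 0.08. Every old array lay above every young one, and the ratio changed by 1.13. The ratio of Gstm1 over Gstm2 changed by 0.56 and that of Gstm5 over Gstm2 by -0.57, again with no overlap. With Gsto1 over Gsta4, which changed by 3.06, and Mgst1 over Mgst3, given below, 5 ratios were computed. In a two-sided exact permutation test each had p = 0.1, the smallest that 3 arrays against 3 allow, and 0.1 after Benjamini-Hochberg adjustment, so none could pass. The ratios restate the differences above within arrays and are no separate evidence for them.

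**Figure D2:**
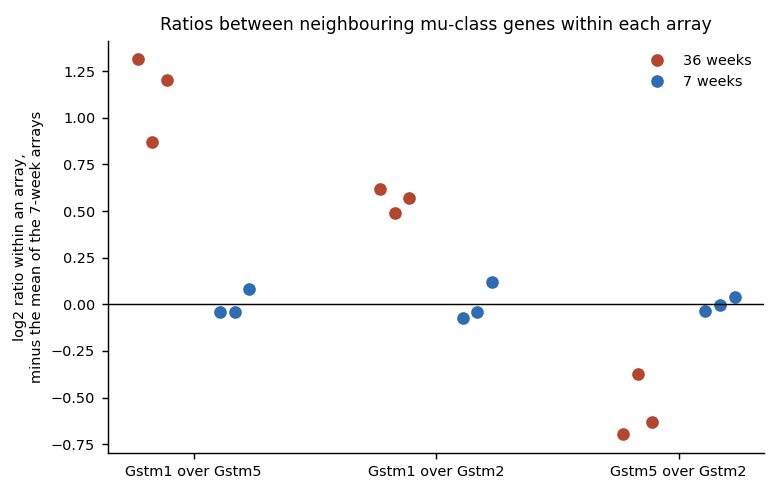
Log2 ratio between mu-class genes within each array, minus the mean of the 7-week arrays, for 36 weeks (red) and 7 weeks (blue), 1 point per array. Gstm1 over Gstm5 lies between 0.87 and 1.31 on the old arrays and between -0.04 and 0.08 on the young ones.

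Gstp1, the pi-class enzyme, which also binds the stress kinase JNK, was bright and showed no difference past the test. Its single probe set had signals of 8645.7, 10972.5 and 9891.0 at 36 weeks and 8610.2, 9666.7 and 8593.0 at 7 weeks. The groups overlapped, with the first old array next to the lowest young ones. The log2 difference was 0.13, with a 95% confidence interval of -0.09 to 0.35 and an adjusted p of 0.335. The mouse has a nearly identical gene, Gstp2, whose transcripts this probe set may not tell apart.

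Gsto1, the omega-class enzyme, which reduces dehydroascorbate and removes glutathione from protein thiols, had the largest rise of the members tested. Its brighter probe set had signals of 4154.2, 3554.9 and 3983.9 at 36 weeks, against 1314.8, 2050.5 and 2103.5 at 7 weeks. The first array of 7 weeks was the lowest of the young, and every old array was at least 1.69-fold above every young one. The mean was 3898 ± 309 at 36 weeks and 1823 ± 441 at 7 weeks (SD, n = 3 each), 2.14-fold higher, with a log2 difference of 1.10 ± 0.17 and an adjusted p of 0.00061 by limma. A dimmer set, ending in _x_at, had 1133.1, 1438.8 and 1449.8 at 36 weeks and 554.3, 607.1 and 606.5 at 7 weeks. It differed by nearly the same amount, 1.11 ± 0.19, with an adjusted p of 0.0011. Its young mean of 589.3 was below the filter level of 593.6, so it was tested because of its level at 36 weeks. About 4.51% of tested probe sets had a higher difference than the brighter set.

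Gstt1, the theta-class enzyme that conjugates small halogenated compounds, was just outside the threshold. Its signals were 1528.1, 1391.5 and 1607.0 at 36 weeks and 2048.4, 1828.4 and 1888.9 at 7 weeks. All 9 pairs were lower at 36 weeks, as 47.8% of tested probe sets also had groups that did not overlap, in either direction. The log2 difference of -0.34 ± 0.13 had an adjusted p of 0.0593 by limma. It passed with quantile normalization (-0.38, adjusted p of 0.0395) and with centring on the array median (-0.44, adjusted p of 0.0186).

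Mgst1, the membrane-bound transferase and peroxidase of the endoplasmic reticulum and the outer mitochondrial membrane, was higher at 36 weeks. Its brighter probe set had signals of 8075.9, 7833.0 and 7726.1 at 36 weeks, against 4104.4, 5060.0 and 4560.7 at 7 weeks. The coefficient of variation of the old arrays was 2.28%, and all were at least 1.53-fold above the young ones. The mean was 1.72-fold higher, and the log2 difference of 0.78 ± 0.09 had an adjusted p of 0.000104 by limma. A second probe set was near the bottom of the signal range, with means of 227.8 at 36 weeks and 249.7 at 7 weeks, and did not pass even without the filter (-0.10, adjusted p of 0.877).

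Mgst3, the other membrane-bound member, which has peroxidase activity and can make leukotriene C4, did not pass the test. Its brighter probe set had signals of 5932.5, 5108.9 and 5238.7 at 36 weeks and 6047.7, 6006.4 and 5702.0 at 7 weeks. Only the first old array reached into the young range. The log2 difference was -0.13, with a 95% confidence interval of -0.32 to 0.07 and an adjusted p of 0.299. Its second probe set was dim, with means of 100.7 at 36 weeks and 195.6 at 7 weeks, and did not pass without the filter (-0.51, adjusted p of 0.526). Within arrays the ratio of Mgst1 over Mgst3 changed by 0.91, with every old array above every young one.

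**Figure D3:**
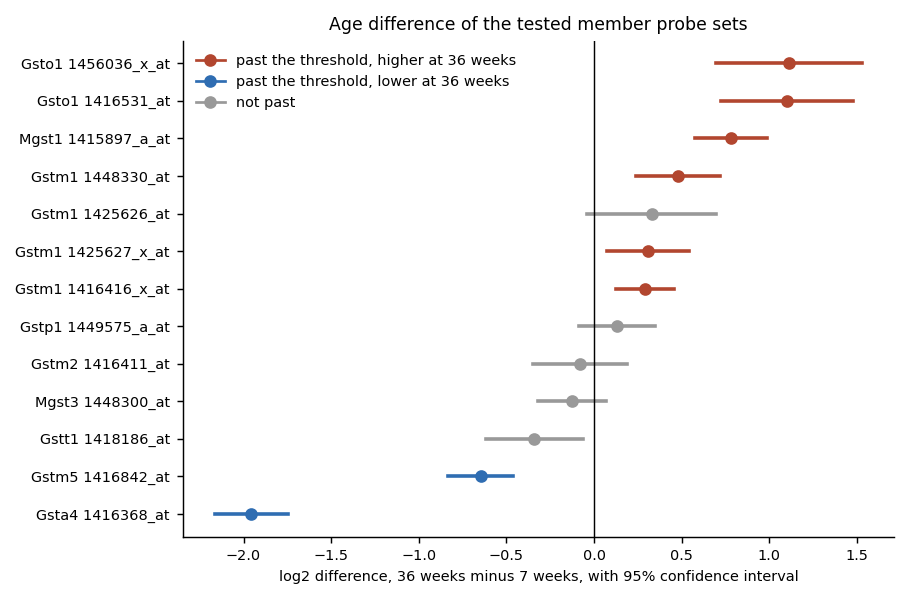
Log2 difference (36 weeks minus 7 weeks) of the 13 tested member probe sets with its 95% confidence interval; red is past the threshold and higher at 36 weeks, blue past it and lower, grey not past. Gsta4 stands alone at -1.96, while both probe sets of Gsto1 lie at 1.10 and 1.11.

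Of 19 other transferases and relatives 15 were on the array and 10 were tested, with 2 higher, 2 lower and a median log2 difference of 0.10, against 0.02 over all tested genes. The count is near the 17.5% of genes higher and 17.6% lower over the whole array. Alox5ap, a MAPEG protein that presents arachidonic acid for leukotriene synthesis and has no known transferase activity, had 11256.2, 12336.5 and 13057.0 at 36 weeks, against 1779.4, 1638.1 and 1534.2 at 7 weeks, a log2 difference of 2.85 ± 0.10 (limma adjusted p of 1.02e-08). Mgst2, a microsomal transferase that can make leukotriene C4, had 2403.5, 2040.3 and 2340.2 at 36 weeks, against 185.8, 866.2 and 621.8 at 7 weeks, a difference of 2.13 ± 0.40 (adjusted p of 0.00218). Its mean at 7 weeks of 557.9 was below the filter level of 593.6, so it was tested because of its level at 36 weeks. With no filter its adjusted p was 0.00688. Leaving out the first array of 7 weeks, the dimmest, gave 1.56 for Mgst2, still past the threshold. Gsta2, an alpha-class enzyme abundant in liver, had 343.7, 82.1 and 46.7 at 36 weeks, against 1089.4, 1199.9 and 954.3 at 7 weeks. It was lower on all old arrays, with a difference of -2.72 ± 0.53 (adjusted p of 0.00273), whose size depends on the offset because the old signals are dim (-3.28 with an offset of 1). Its mean at 36 weeks of 157.5 was below the filter level, so Gsta2 was tested because of its level at 7 weeks, and it fell out of the test without any 1 of the 3 arrays of 7 weeks. With no filter its adjusted p was 0.00468. Gstk1, the kappa-class enzyme of mitochondria and peroxisomes, was lower by a difference of -0.51 ± 0.18, at the edge of the threshold (adjusted p of 0.0482). It was past the threshold in 2 of the 6 refits without 1 array and lost without replicate 1 or 2 of 36 weeks or replicate 1 or 3 of 7 weeks. The list's count of 4 was 2 without replicate 1 and 2 without replicate 3 of 7 weeks. The remaining mu-class neighbours Gstm7, Gstm4 and Gstm3 had differences of 0.37, 0.10 and -0.01 and did not pass, and Gstm6 was too dim to be tested.

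The next list holds genes of glutathione synthesis, recycling and breakdown, and of the supply of cysteine and NADPH. Those that passed were higher at 36 weeks. Of 22 listed genes 20 were on the array and 16 were tested, with 6 higher, 0 lower and a median of 0.17, where 17.5% of all genes were higher and 17.6% lower. Pgd, an enzyme of the pentose phosphate pathway that regenerates NADPH, had 6860.5, 6902.2 and 6341.4 at 36 weeks, against 2297.2, 2082.9 and 2276.6 at 7 weeks, 3.02-fold higher (log2 difference of 1.57 ± 0.09, limma adjusted p of 6.19e-07). Gsr, glutathione reductase, which uses that NADPH, had 3401.3, 3784.0 and 3616.0 at 36 weeks, against 1348.9, 1503.4 and 1357.4 at 7 weeks, 2.57-fold higher (1.33 ± 0.11, adjusted p of 8.86e-06). Ggt5, a gamma-glutamyl transferase that cleaves leukotriene C4, and Glrx, glutaredoxin, differed by 1.34 ± 0.21 and 0.90 ± 0.17. Ggt5, with a mean of 453.7 at 7 weeks, was likewise tested because of its level at 36 weeks, and its adjusted p was 0.00208 with no filter. The 2 subunits of glutamate-cysteine ligase, which sets the rate of synthesis, are set apart here after their values were seen. The modifier subunit Gclm was higher, by 0.76 ± 0.15 (adjusted p of 0.00316), while the catalytic subunit Gclc had a difference of -0.26 that did not pass (adjusted p of 0.206). Gss, glutathione synthetase, had -0.03 (adjusted p of 0.925).

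Of 10 genes for export and further processing of conjugates 8 were on the array but only 3 were bright enough to be tested, too few to set against the share over all genes. Abcg2, an efflux pump of many substrates, had 1322.3, 1365.5 and 1348.9 at 36 weeks, against 2284.1, 2307.7 and 2114.2 at 7 weeks, a difference of -0.71 ± 0.12 (limma adjusted p of 0.00103). Abcc5, a pump of cyclic nucleotides and glutathione conjugates, had 6676.4, 7296.5 and 7246.7 at 36 weeks, against 5433.1, 5244.8 and 5589.7 at 7 weeks, a difference of 0.38 ± 0.08 (adjusted p of 0.0044). Abcc1, the best known exporter of glutathione conjugates, had -0.06 and did not pass (adjusted p of 0.809).

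Of 22 listed genes of NRF2, its partners and its targets outside the family, 20 were on the array and 16 were tested, with 3 higher, 5 lower and a median of -0.25. Over all genes 17.5% were higher and 17.6% lower. The count of 8 was 4 without replicate 2 and 5 without replicate 3 of 36 weeks, 5 without replicate 1 and 4 without replicate 2 of 7 weeks, and 4 without the intensity trend of the test. Srxn1, sulfiredoxin, which repairs overoxidised peroxiredoxins, had 2510.1, 2855.8 and 2833.2 at 36 weeks, against 1613.4, 1100.3 and 1368.4 at 7 weeks, a difference of 0.99 ± 0.15 (limma adjusted p of 0.000555). Txn1, thioredoxin, differed by 0.52 ± 0.08 (adjusted p of 0.000484). Ephx1, microsomal epoxide hydrolase, and Fth1, the ferritin heavy chain, were lower, by -0.54 ± 0.11 and -0.32 ± 0.07. Fth1 was measured by a probe set ending in _s_at, which can bind related transcripts. Nfe2l2, the gene of NRF2 itself, and Keap1, its repressor, were looked at after their values were seen, with differences of -0.37 ± 0.11 and -0.30 ± 0.10 and adjusted p of 0.0256 and 0.0416. Nfe2l2 stayed past the threshold in 1 of the 6 refits without 1 array and Keap1 in 0 (adjusted p of 0.0166 to 0.0859 and of 0.0551 to 0.138). Nqo1 and Hmox1, classical targets, were too dim to be tested.

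Of 20 other enzymes of aldehydes, epoxides and foreign compounds 15 were tested, with 3 higher, 4 lower and a median of -0.07. Over all genes 17.5% were higher and 17.6% lower, and counts from 15 genes say little beside these shares. Cyp2f2, a cytochrome P450 of airway secretory cells, differed by 0.54 ± 0.07, and Aldh2, the mitochondrial aldehyde dehydrogenase that also acts on 4-hydroxynonenal, by 0.45 ± 0.08. Cyp1b1, a cytochrome P450 of mesenchymal cells, and Sult1a1, a sulfotransferase of phenols, were lower, by -0.78 ± 0.13 and -0.58 ± 0.10. The largest limma adjusted p of these 4 was 0.00178, that of Aldh2.

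**Figure D4:**
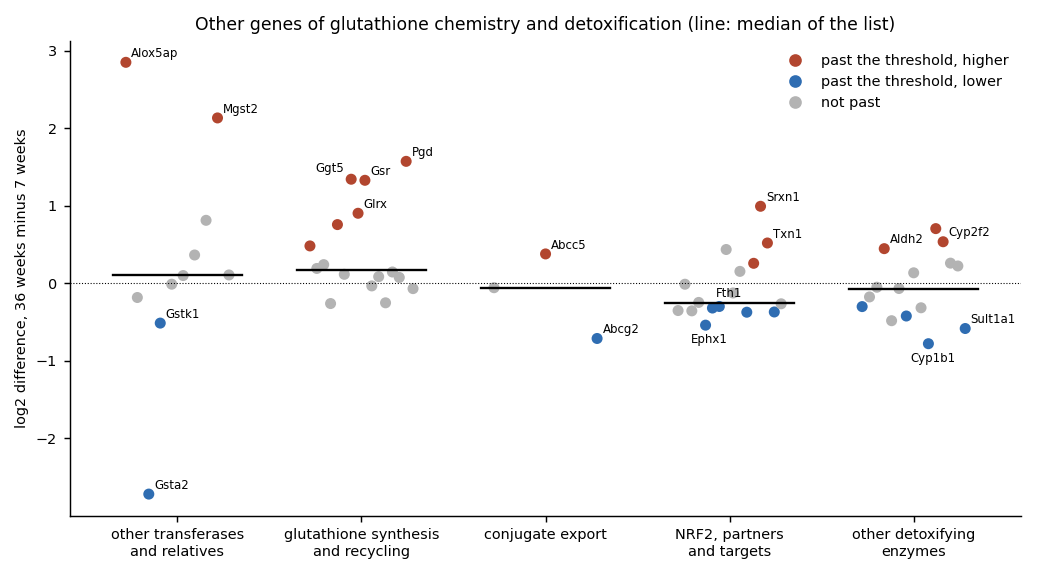
Log2 difference (36 weeks minus 7 weeks) of the tested genes of 5 lists, 1 point per gene by its brightest tested probe set, coloured as past the threshold and higher (red), past it and lower (blue) or not past (grey), with the median of each list as a line. Names are given where the naming rule applied; Alox5ap at 2.85 and Gsta2 at -2.72 mark the extremes.

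Markers of several other cell types differed on the same arrays as the members. Over all genes 17.5% were higher and 17.6% lower, and the counts of the short lists below say little beside these shares. Coch, a gene of the cochlea, was bright, at 20509 to 22225 at 36 weeks and 80510 to 84960 at 7 weeks. Bpifb1, of the airway epithelium list, was brighter than Coch at 36 weeks, at 212904 to 234408. It was dimmer than Coch at 7 weeks, at 56849 to 60177, and its probe set, ending in _x_at, can bind related transcripts. How much of the signal came from cochlear cells was not tested. All 12 granulocyte markers were higher at 36 weeks, with a summed signal of 700615 to 746045 at 36 weeks and 49883 to 55314 at 7 weeks. Of 10 tested markers of secretory airway epithelium 8 were higher and 1 lower, with sums of 556500 to 599518 at 36 weeks and 171035 to 182326 at 7 weeks. The lower 1 was Epcam, with a difference of -0.37 ± 0.11 (limma adjusted p of 0.0195), and Foxj1 did not pass. Of 9 brain markers 8 were higher, with sums of 80915 to 86017 at 36 weeks and 27085 to 28803 at 7 weeks. All 12 skeletal muscle markers were lower, with sums of 133571 to 141714 at 36 weeks and 346821 to 368940 at 7 weeks, and so were all 11 tested markers of spiral ligament fibrocytes, with sums of 88435 to 93229 at 36 weeks and 311832 to 324871 at 7 weeks. Lower counts also outnumbered higher ones for stria vascularis (7 of 10 lower), Schwann cells and myelin (6 of 7 lower), supporting cells (4 of 7 lower, 2 higher), hair cells (3 of 6 lower), osteoblasts and osteocytes (4 of 7 lower, 1 higher) and erythroid cells (2 of 4 lower). The 2 higher supporting cell genes were Slc1a3 and Gfap, and Gfap is also counted among the 8 higher brain markers. The osteoblast and osteocyte sums overlapped, at 18927 to 23040 at 36 weeks and 18959 to 24421 at 7 weeks. The adipocyte list had 3 of 5 higher, the macrophage list 1 of 8 and the mast cell list 1 of 3. The macrophage call was Lyz2, with means of 146757 at 36 weeks and 23232 at 7 weeks, most of that list's summed signal. The hepatocyte list had 1 of 3 higher and 1 lower. Some of these markers were tested because of their level at 1 age, their mean at the other being below the filter level. No marker was at 0 on any array. The part of these shifts in the differences of the glutathione transferases was not tested.

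**Figure D5:**
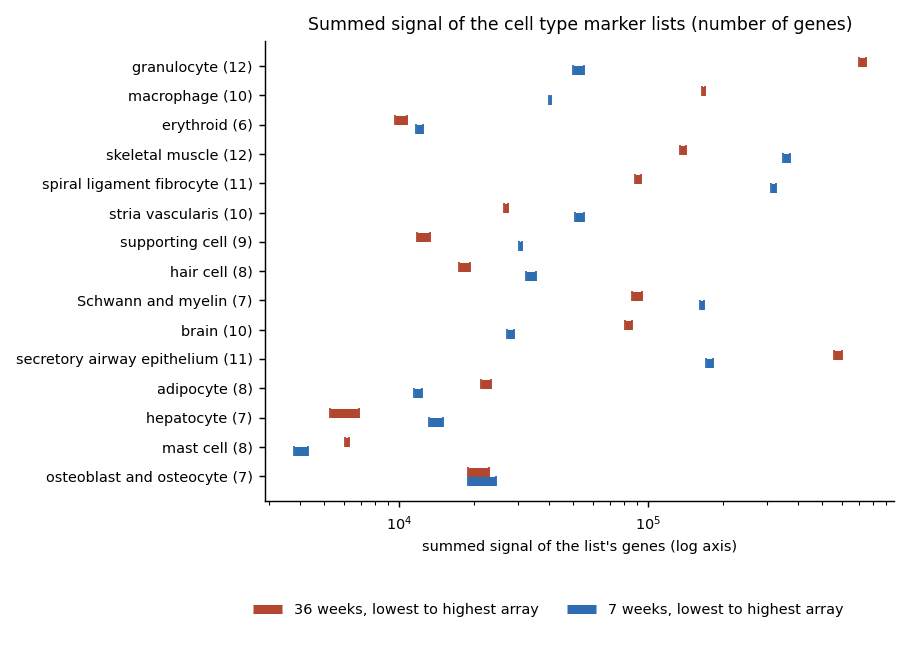
Summed signal of each marker list on a log axis, as the span from the lowest to the highest array of 36 weeks (red, upper) and of 7 weeks (blue, lower), with the number of genes summed in brackets. The granulocyte sum is higher at 36 weeks and the fibrocyte and muscle sums are lower, with no overlap between the ages. Most of the macrophage sum is Lyz2.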

How the data were processed

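Cochlear RNA was amplified to biotin-labelled cRNA and hybridised to Affymetrix arrays, per the labels' protocols. What the authors deposited is an intensity per probe set, linear and of 1 colour. Summarising software: not given in the sources used here. The arrays share a trimmed mean of 1489.8 to 1492.5 (the lowest and highest 2% left out), so they had been scaled, and genes were not centred. The absolute scale is unknown. Genes were named from the platform annotation, using the 20380 probe sets with 1 symbol. 691 had several and 1555 none.

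Signals were tested as log2(signal + 50), which understates changes of dim probe sets, unpaired, with limma 3.58.1 in R 4.3.3 (lmFit, then eBayes with an intensity trend). Python 3.11.15 and matplotlib 3.10.9 were used for sequences and figures. In data simulated after these arrays 200 of 13575 probe sets were changed. There the test recovered 47% of changes of 1 and 17% of changes of 0.5, with 1 false call among 65. In the real data 34.4% of the tested probe sets passed, far more than were changed in the simulation. Its rates therefore do not carry over to the real data.

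All member probe sets are reported. Of each pathway list the 4 tested genes with the smallest p past the threshold are named (the 2 smallest where fewer than 2 passed), and marker lists are given by counts and sums. Members and lists were chosen with earlier results of these data known. Deviations of same-numbered arrays of the 2 ages had correlations of -0.01 to 0.05. Over arrays of any number they ranged from -0.04 to 0.05, and the highest was that of replicate 1. With so few arrays an age, these correlations cannot decide whether the numbers pair samples. The main test treated the arrays as unpaired.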

Additional observations from a re-analysis of the deposited data

How the results depend on the processing

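The 13 tested member probe sets were refitted under 14 alternatives: 2 other offsets (1 and 16), 2 other scalings (quantile, array median), 2 other filters (none, the 60th percentile), a test with no intensity trend, a replicate block, and each array left out. No difference changed sign, and 10 of 13 stayed on their side of the threshold wherever they were tested (the _x_at set of Gsto1 fell below the 60th-percentile filter). The exceptions were 2 probe sets of Gstm1 and the 1 of Gstt1. Without the intensity trend the brightest probe set of Gstm1 had an adjusted p of 0.0689 and its dimmer _x_at set 0.0559. That set was also lost with quantile normalization (0.0583), median centring (0.175) and no filter (0.0504). With the replicate block 5 member probe sets were higher and 2 lower, the dimmer _x_at set of Gstm1 being lost (adjusted p of 0.0692), and no other member call changed. Of the pathway genes named, Keap1 was lost with the replicate block (0.0700), without the trend (0.0771) and with quantile normalization (0.0604), Gstk1 without the trend (0.0777) and with no filter (0.0829), and Fth1 without the trend (0.0689). The counts of 6 higher and 2 lower were 4 and 3 with centring on the array median and 5 and 3 with quantile normalization. They were 3 and 1 when all 9 pairs had to differ at least 1.5-fold. The higher count was 3 without probe sets ending in _x_at or _s_at and 3 when counted by gene. Gstm1 and Gsto1 are then counted with fewer probe sets. By gene, Gstm1 is counted through its brightest probe set, which did not pass with median centring (limma adjusted p of 0.107). Leaving out 1 array gave 5 higher and 2 lower each time, and 3703 to 4092 calls over all probe sets, against 4665. The same refits of the pathway lists were chosen after seeing the data. Their counts were 2 to 4 for other transferases and 4 to 6 for NRF2 and its targets without 1 array, and 4 for the NRF2 list without the intensity trend. Dim signals limit Gsta3 and the second probe sets of Mgst1 and Mgst3.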
